A study of Mus musculus with 2 samples.

Results

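The 31 genes described here are regulators in which mutations are known from neurodevelopmental disorders such as autism and intellectual disability. They were chosen by name from the 32285 genes of the matrices, in 6 groups by role: chromatin remodellers, histone methyltransferases and related regulators, transcription factors and co-regulators, membrane scaffolds with adhesion molecules and a catenin, ubiquitin ligases and a kinase, and RNA-binding or growth control genes. The rule uses no measured level. The study took nuclei from the hippocampus of mice carrying 1 knocked-out copy of Capza2 (CAPZA2+/-, heterozygous knockout) and of wild-type mice, to compare their cell populations. Capza2 encodes an alpha subunit of the protein that caps the barbed ends of actin filaments. Each genotype had 1 single-nucleus library made with 10x Genomics 3' v3 chemistry, and age, sex, strain and the number of mice behind each library were not given in the labels. Every difference between genotypes below is therefore a difference between 2 libraries, with no replicate check and no test.

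Most of these genes act in the nucleus. Chromatin remodellers move or evict nucleosomes, histone methyltransferases write marks that separate active from silent chromatin, and transcription factors and their co-regulators read the underlying sequence, so that loss of 1 copy can shift the output of many other genes while neurons are made and wired. The remaining genes act at the membrane, where ankyrins tether channels to the spectrin skeleton, or in the cytoplasm, where they control protein turnover, translation and growth signalling. In the adult hippocampus many of them stay on in mature neurons, and several also work in glia.

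The heterozygote library held 62702888 unique molecular identifiers (UMIs, counted transcripts) in 7801 barcodes and the wild-type library 58701532 in 6512. After filtering, 6795 and 6094 nuclei were kept, and 13 barcode sequences occurred in both libraries. Nuclei were sorted into classes by clustering without the 31 genes, and 9 classes had at least 100 nuclei in each library: dentate granule neurons, CA1 and CA3 pyramidal neurons, excitatory neurons like those of subiculum, entorhinal cortex or neocortex, inhibitory neurons, astrocytes, oligodendrocytes, oligodendrocyte precursors and microglia. These are marker-based names for rebuilt clusters, and CA2 and hilar mossy neurons had no cluster of their own. Classes held between 379481 UMIs (wild-type microglia) and 15255984 UMIs (heterozygote dentate granule neurons), and the median UMIs per nucleus ran from 1464 in heterozygote microglia to 17508.5 in heterozygote CA3 neurons. Levels are UMIs per 1000000 UMIs of the class (CPM), with 95% Poisson intervals that cover counting error only. A CPM is a share of the class's RNA, so more of a transcript and less of the others cannot be told apart. Over all nuclei kept, Capza2 had 3787 UMIs (67.9 CPM) in the heterozygote library and 4622 (86.3 CPM) in the wild-type library, a log2 ratio of -0.35 (interval -0.41 to -0.28), the direction that the genotype labels give.

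The upstream sequences of the genes were read first, since these genes are widely expressed and such genes often start in CpG-rich DNA. RefSeq start sites (GRCm38.p6) were matched for 23 of the 31 genes, 36 promoters in all, each 300 bases long from 250 bases before to 50 after the start. A promoter was called island-like where its GC content exceeded 55% and its observed CpG count exceeded 0.65 of that expected from its base composition. Of the 23 genes, 16 (69.6%) had an island-like promoter, against 64.3% of 8466 genes with at least 200 UMIs in any class and 30.2% of all 27025 genes in the table. The share among these genes thus lay near that of expressed genes in general. The 250 bases before the start are shown for 4 genes that differ in CpG content and in their spread over cell types, with each CpG in capitals: Chd8 (chr14:52257761-52258010, minus strand), Ube3a (chr7:59228500-59228749, plus strand), Myt1l (chr12:29528134-29528383, plus strand) and Mef2c (chr13:83503784-83504033, plus strand).
Chd8: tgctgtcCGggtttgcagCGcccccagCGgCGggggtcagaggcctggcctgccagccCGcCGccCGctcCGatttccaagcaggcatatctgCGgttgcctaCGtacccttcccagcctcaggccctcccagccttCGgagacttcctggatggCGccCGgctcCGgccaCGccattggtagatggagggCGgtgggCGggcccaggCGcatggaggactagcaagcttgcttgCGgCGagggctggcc
Ube3a: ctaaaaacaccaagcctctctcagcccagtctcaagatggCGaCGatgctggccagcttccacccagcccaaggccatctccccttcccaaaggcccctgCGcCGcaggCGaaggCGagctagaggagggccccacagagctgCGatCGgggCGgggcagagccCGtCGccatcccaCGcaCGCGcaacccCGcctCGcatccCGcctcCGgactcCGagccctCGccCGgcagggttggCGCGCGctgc
Myt1l: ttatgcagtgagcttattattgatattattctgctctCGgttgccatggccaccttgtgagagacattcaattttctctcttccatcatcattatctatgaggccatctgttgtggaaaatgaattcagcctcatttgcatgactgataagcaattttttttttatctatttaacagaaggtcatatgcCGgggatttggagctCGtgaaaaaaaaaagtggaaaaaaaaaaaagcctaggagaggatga
Mef2c: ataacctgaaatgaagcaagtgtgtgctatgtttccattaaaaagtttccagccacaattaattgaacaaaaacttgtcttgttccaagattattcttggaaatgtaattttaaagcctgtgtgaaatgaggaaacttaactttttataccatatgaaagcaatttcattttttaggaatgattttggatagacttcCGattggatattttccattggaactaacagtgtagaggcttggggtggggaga
The Chd8 stretch held 20 CpGs and the Ube3a stretch 24, while Myt1l held 3 and Mef2c 1. Myt1l and Mef2c have several RefSeq starts, and the stretches shown lie before the one nearest the annotated gene start. The 4 other Myt1l promoters held 6 to 13 CpGs in 300 bases. Ube3a and the Myt1l stretch shown thus differ in CpG content, while the levels of the 2 genes over the classes, given below, were the most alike of all pairs that include either of them. The motif TATAAA, searched on both strands, was found in 4 of 36 promoters (11.1%), against 7.18% of promoters of expressed genes and 13.6% of all promoters, and 1 of the 4 was the Mef2c promoter shown. The E-box CAGCTG, a form bound by basic helix-loop-helix factors such as TCF4, was in 7 of 36 (19.4% against 15.2% and 16.3%), and CACCTG was in 4 of 36 (11.1% against 17.7% and 20.2%).

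Across cell classes most of the genes were broadly expressed, and a few were not. A specificity index was computed that is 0 for an equal level in all classes and 1 for a gene found in 1 class only. Its median over the 31 genes was 0.44 in the heterozygote and 0.42 in the wild-type library, against 0.51 and 0.50 over 7176 genes with at least 1800 UMIs in the 9 classes together, a floor that Tbr1 and Tsc2 missed. The highest indices belonged to Dscam (0.88 and 0.85) and Mef2c (0.88 and 0.87), and the lowest to Tsc2 in the heterozygote (0.13) and Kmt2a in the wild type (0.14). In each library 11 of the 31 genes had a higher mean level in the 5 neuronal classes than in the 4 glial ones, against 36.4% and 37.0% of all genes. Counting intervals limited the ranking of classes: the level in the highest class had a median half-width of 13.9% of its value in the heterozygote and 15.8% in the wild type, and it lay clear of the intervals of all other classes for 16 and 14 of the 31 genes.

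**Figure D1:**
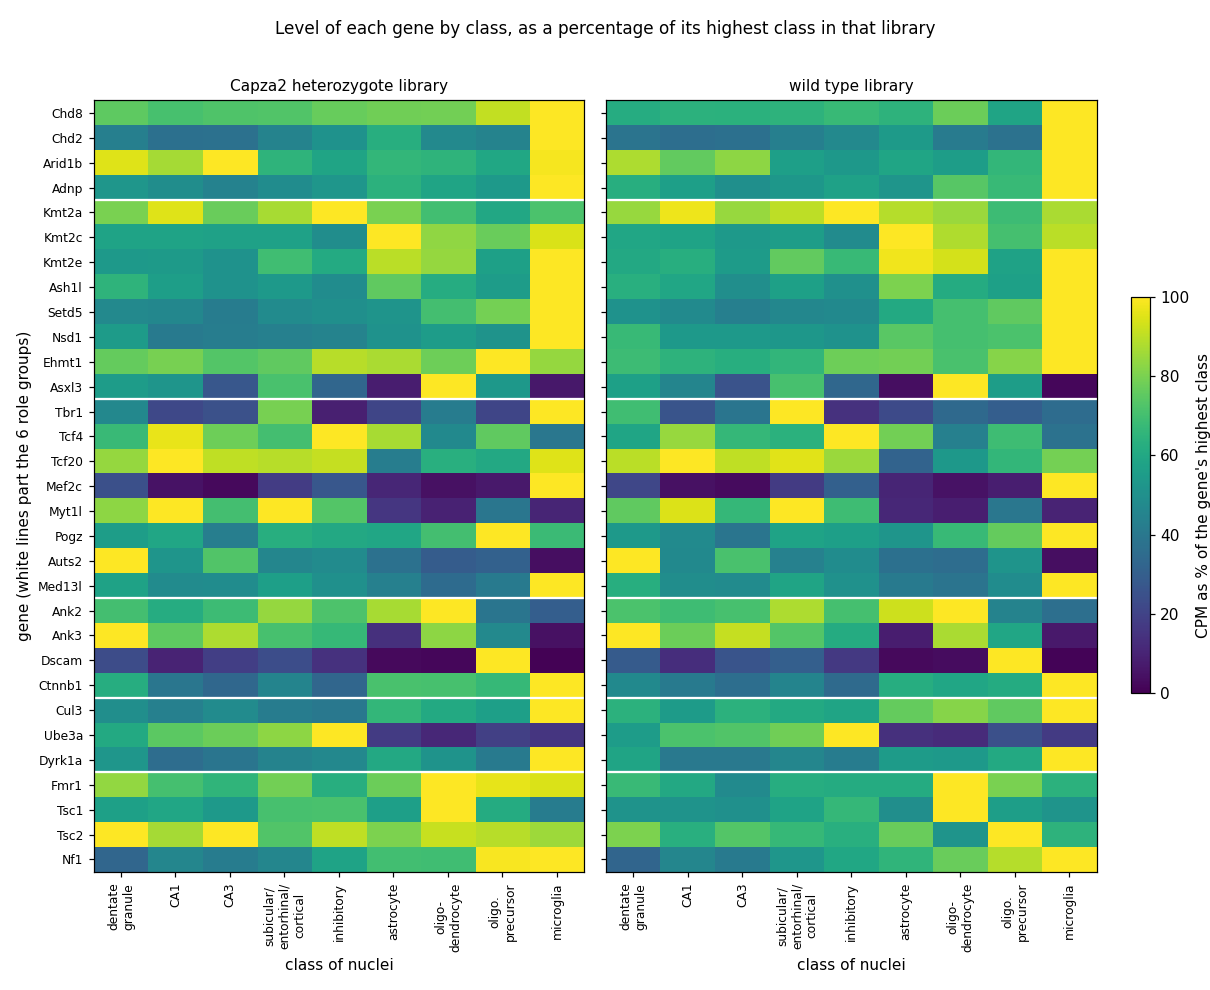
Level of each of the 31 genes (rows) in the 9 classes (columns) as a percentage of the gene's own highest class, for the heterozygote library (left) and the wild-type library (right). Mef2c and Dscam each stand out in 1 class in both libraries, Ube3a and Myt1l are high in the neuronal classes, and many genes reach their highest share in microglia; the microglial value of Tbr1 in the heterozygote rests on 10 UMIs.

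Microglia, the shallowest class, was the highest class for 14 genes in the heterozygote and 16 in the wild-type library. No share of all genes is given beside this or the microglial counts below, so they are not read as a trait of these genes. Genes in general leaned to glia. The median of the neuronal mean over the glial mean was 0.81 and 0.83 for all genes, and 0.79 and 0.86 for the 31. Markers of neurons were read in microglia too. Nrgn, a postsynaptic gene of excitatory neurons that microglia should lack, stood at 966 and 833 CPM in microglia, 231% and 224% of its level in its highest neuronal class. The other 5 general excitatory markers ranged from 3.11% (Arpp21) to 92.1% (Neurod6) in the heterozygote and from 7.57% (Arpp21) to 62.7% (Slc17a7) in the wild type, where Neurod6 stood at 47.9%. Of the 31 genes, 15 were higher in microglia than in any neuronal class in both libraries, 2 (Tbr1 and Fmr1) in the heterozygote alone and 2 (Arid1b and Ehmt1) in the wild type alone. In each library only Mef2c (367% and 326% of its highest neuronal class) passed Nrgn. How much of the other genes' microglial level came from free RNA was not tested. Per nucleus the order was different, since microglia held few UMIs: Chd2 gave 359 and 387 CPM in microglia against 133 and 140 CPM in CA1 neurons, but 0.545 and 0.620 UMIs per microglial nucleus against 1.80 and 1.70 per CA1 nucleus.

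The chromatin remodellers and their partners were found in every class. Chd8, an ATP-dependent remodeller, lay between 76.9 and 108 CPM over the 9 classes in the heterozygote and between 76.7 and 132 CPM in the wild type, with 53 and 50 UMIs in microglia, its highest class. Its microglial intervals (81.1 to 142 and 97.8 to 174 CPM) reached those of other classes. Chd2, a related remodeller, was also highest in microglia (359 and 387 CPM) and lowest in CA1 neurons, and Adnp, a homeobox and zinc-finger protein that works with remodellers, reached 153 and 145 CPM in microglia. Arid1b, a subunit of the BAF complex, was highest in CA3 neurons in the heterozygote (327 CPM) and in microglia in the wild type (382 CPM). Its dentate granule level of 311 and 335 CPM was above its inhibitory neuron level of 190 and 204 CPM in both libraries.

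Among the histone methyltransferases and related regulators, Kmt2a, which methylates histone H3 lysine 4, was highest in inhibitory neurons (216 and 199 CPM) and close to that in CA1 neurons (205 and 194 CPM). Kmt2c, of the same enzyme family, was highest in astrocytes (405 and 412 CPM), and its inhibitory neuron level was 199 CPM in both libraries. Kmt2e, a family member without strong enzyme activity, reached 302 and 295 CPM in microglia. The genes Ash1l (390 and 395 CPM), Setd5 (425 and 424 CPM) and Nsd1 (588 and 488 CPM), all with SET domains, were also highest in microglia. Ehmt1, a histone H3 lysine 9 methyltransferase, was highest in precursors in the heterozygote (169 CPM) and in microglia in the wild type (213 CPM), with overlapping intervals between these classes.

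Asxl3, a partner of the histone deubiquitinase BAP1, had an order of classes that was identical in the 2 libraries. It was highest in oligodendrocytes (161 and 152 CPM, from 357 and 241 UMIs), followed by the subicular, entorhinal or cortical class (115 and 108 CPM). Astrocytes (12.8 and 5.54 CPM) and microglia (10.2 and 2.64 CPM) were lowest, with 1 to 15 UMIs per class and library. The oligodendrocyte interval (144 to 178 CPM in the heterozygote and 134 to 173 in the wild type) lay above every other class in both libraries. Asxl3 thus differed between oligodendrocytes and astrocytes, both macroglia, more than between oligodendrocytes and any neuronal class.

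The transcription factors held the most restricted gene of the nuclear regulators. Mef2c, a MADS-box factor of muscle, neurons and myeloid cells, gave 2336 CPM (2202 to 2475) in heterozygote and 2332 CPM (2181 to 2491) in wild-type microglia. Inhibitory neurons came next (637 and 715 CPM), then dentate granule neurons (568 and 496 CPM), while CA1 neurons had 110 and 106 CPM and CA3 neurons, the lowest class, 55.6 and 64.5 CPM. Microglia and CA3 differed 42.0-fold and 36.2-fold. Mef2c also varied within a named class: in the 4 clusters of the subicular, entorhinal or cortical class the wild-type level was 820, 137, 155 and 97.6 CPM, and the heterozygote level 819, 165, 179 and 115 CPM. The high cluster was the same in both libraries.

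Tcf4, a basic helix-loop-helix factor also called E2-2, was highest in inhibitory neurons (2379 and 2553 CPM) and lowest in microglia (943 and 964 CPM). Its 2 CA1 clusters differed, at 2683 and 2745 CPM in the larger and 1645 and 1482 CPM in the smaller. Myt1l, a zinc-finger factor that represses non-neuronal genes, was 4.55 and 4.71 times higher in the mean of the neuronal classes than in that of the glial classes. It stood at 892 and 851 CPM in CA1 and at 890 and 898 CPM in the subicular, entorhinal or cortical class. Among glia it was highest in precursors (349 and 355 CPM), against 85.4 and 75.1 CPM in oligodendrocytes. Auts2, an activator that joins a Polycomb complex, was highest in dentate granule neurons (3576 and 3618 CPM), then CA3 neurons (2599 and 2575 CPM), and lowest in microglia (133 and 134 CPM). In the subicular, entorhinal or cortical clusters its wild-type level ran from 664 to 2553 CPM, the highest in the same cluster that was high in Mef2c.

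Tcf20, a nuclear co-regulator, was highest in CA1 neurons (266 and 287 CPM) and lowest in astrocytes (113 and 91.9 CPM), which differed from every neuronal class in both libraries. Med13l, a subunit of the Mediator kinase module, was highest in microglia (221 and 229 CPM). Pogz, a heterochromatin-associated zinc-finger protein, was highest in precursors in the heterozygote (89.7 CPM) and in microglia in the wild type (97.5 CPM), from 63 and 37 UMIs. Tbr1, a T-box factor of early-born cortical neurons, gave at most 20.4 CPM in any class, and in the subicular, entorhinal or cortical class 16.2 and 14.8 CPM from 96 and 118 UMIs. It was under 200 UMIs in 7 of the 9 classes.

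Of the membrane group, Dscam, a cell adhesion molecule of the immunoglobulin family, was highest in oligodendrocyte precursors, at 3644 CPM (3505 to 3788) in the heterozygote and 2832 CPM (2723 to 2944) in the wild type. The next class, the subicular, entorhinal or cortical neurons, had 868 and 861 CPM. Mature oligodendrocytes had 67.0 and 90.3 CPM and microglia 16.3 and 23.7 CPM, so mature oligodendrocytes lay far below their precursors. Ank3, which encodes ankyrin-G of the axon initial segment and nodes of Ranvier, was highest in dentate granule neurons (1739 and 1753 CPM). It stood nearly as high in oligodendrocytes (1444 and 1531 CPM) and far lower in astrocytes (242 and 141 CPM) and microglia (77.6 and 121 CPM). Ank2, encoding ankyrin-B, was highest in oligodendrocytes (2174 and 2173 CPM) and unlike Ank3 was high in astrocytes as well (1893 and 2011 CPM). Ctnnb1, beta-catenin, was highest in microglia (108 and 121 CPM, 53 and 46 UMIs).

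Ube3a, a ubiquitin ligase that is expressed from the maternal copy in neurons, was highest in inhibitory neurons (1997 and 1965 CPM) and ranged from 1084 to 1661 CPM in the excitatory classes of both libraries. Glial levels ran from 222 to 482 CPM, and the neuronal mean was 5.05 and 4.46 times the glial mean. Snhg14, the long transcript that includes the Ube3a antisense RNA and overlaps Ube3a on the other strand, followed the same split, with 1246 and 1248 CPM in inhibitory neurons and 77.3 and 83.3 CPM in oligodendrocytes. Whether the authors counted reads by strand was not given in the sources used here. It is therefore not known whether reads of the 2 genes were told apart where they overlap. Cul3, a scaffold of ubiquitin ligases, reached 225 and 177 CPM in microglia, and Dyrk1a, a kinase encoded in the Down syndrome region, 253 and 256 CPM.

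In the last group, Tsc1, which with Tsc2 restrains mTORC1 signalling, was highest in oligodendrocytes (92.6 and 117 CPM), above the interval of every other class. Tsc2 stayed between 12.6 and 24.5 CPM, with an order of classes that was not shared between libraries (Spearman's rho 0.03 over 9 classes). Fmr1, the RNA-binding translation regulator lost in fragile X syndrome, was highest in oligodendrocytes (60.7 and 73.8 CPM) and differed at most 2.09-fold between classes. Nf1, a brake on Ras signalling, was highest in microglia (421 and 430 CPM) and precursors (417 and 382 CPM) and lowest in dentate granule neurons (139 and 140 CPM). Nf1 overlaps Omg and the Evi2 genes on the other strand, Tsc2 overlaps Pkd1, Kmt2e overlaps Srpk2, Ash1l overlaps Dap3 and Ctnnb1 overlaps Ulk4, so the limit on strand applies to them too. Chd2 overlaps 1810026B05Rik and Tcf20 overlaps Gm29019 on the same strand, where strand does not separate reads.

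**Figure D2:**
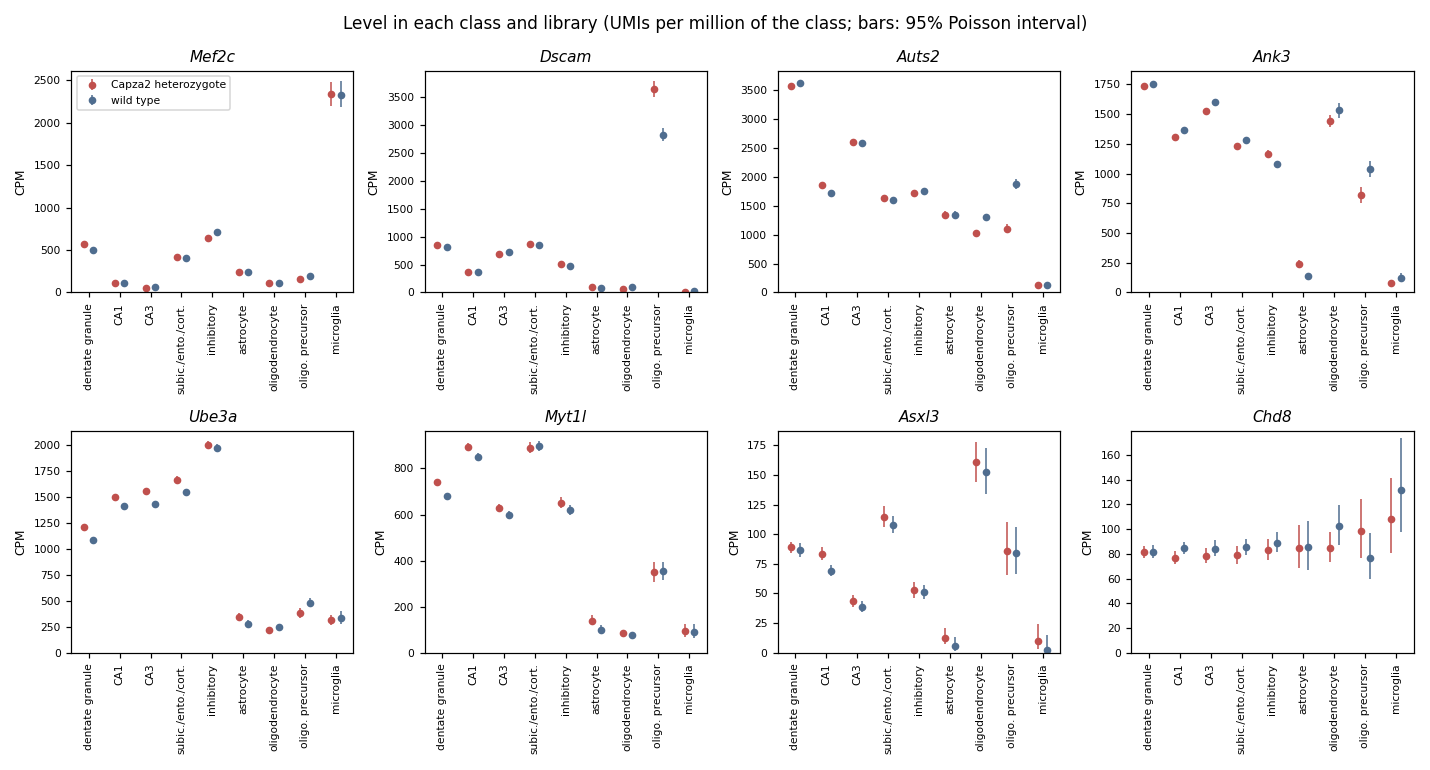
CPM of 8 genes in the 9 classes for the heterozygote (red) and wild-type (blue) libraries, with 95% Poisson intervals as bars and every axis starting at 0. Mef2c peaks in microglia at 2336 and 2332 CPM, Dscam in oligodendrocyte precursors at 3644 and 2832 CPM, Ube3a and Myt1l separate neurons from glia, and Chd8 is nearly level.

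The patterns of the genes were also compared with each other over the 18 class and library values, on a log scale. Classes share libraries and neurons share lineage and depth, so these correlations are descriptions. Ube3a and Myt1l were the most alike of their pairs (r = 0.94), and Nsd1 and Dyrk1a reached the same value. The least alike pair was Ube3a and Kmt2c (r = -0.95).

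Longer genes had higher levels. The genes spanned a median of 125.5 kb in GENCODE M21 (GRCm38), from 11.2 kb (Tbr1) to 1106 kb (Auts2), against 33.3 kb for 11058 genes over 200 UMIs in at least 1 class. Of the 31 genes, 18 exceeded 100 kb, against 20.0% of those genes. The mean CPM over classes in the wild type followed the span with Spearman's rho of 0.80 across the 31 genes, which are not independent replicates. Per kb of span, Ube3a was the highest at 12.3 and 11.8 CPM per kb, followed by Tcf4 at 5.06 and 4.94, while Auts2 stood at 1.51 and 1.60, close to Chd8 at 1.44 and 1.53.

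**Figure D3:**
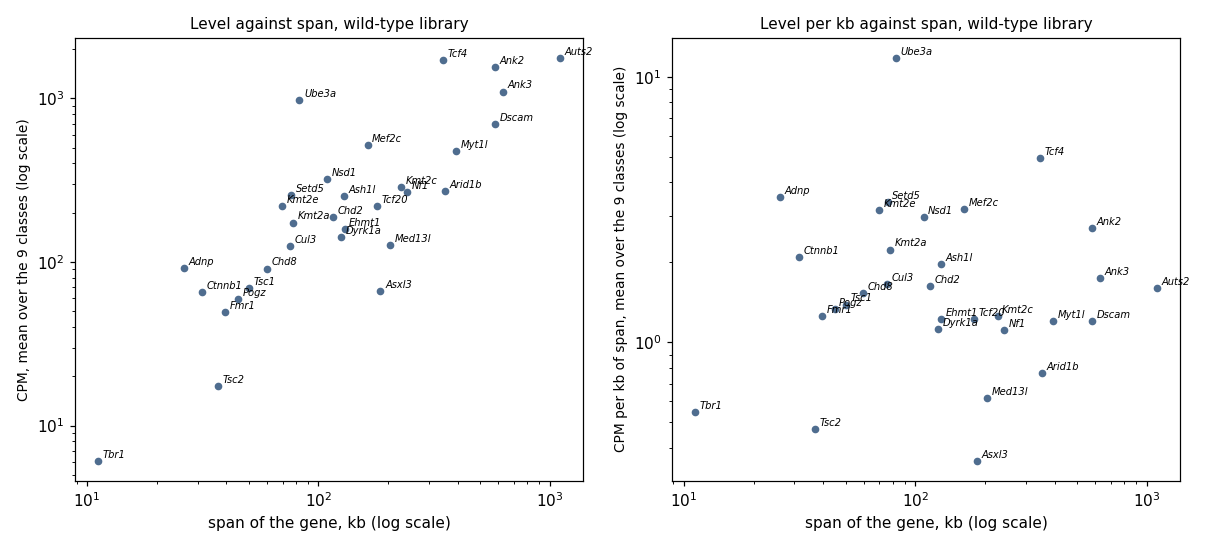
Mean CPM over the 9 classes (left) and the same divided by the gene's span in kb (right) against span, wild-type library, all axes on a log scale, 1 point per gene. Level climbs with span from Tbr1 (11.2 kb) to Auts2 (1106 kb), and Ube3a stands above the rest once levels are divided by span.

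Between the 2 libraries the genes differed little within a class. Of 279 gene and class combinations, 235 had at least 200 UMIs over both libraries. The number of genes over that floor ran from 31 in dentate granule neurons to 14 in microglia. The median log2 ratio (heterozygote over wild type) over the 235 values was -0.04. A ratio of at least 0.5 in size on the log2 scale was reached by 1 value on the higher side and 2 on the lower, against 0.977% of 49724 values of all genes on the higher side and 1.65% on the lower. The genes' shares therefore lay near or under the background. Of the 235 values, 212 (90.2%) lay within 0.25 of 0, against 81.7% for all genes. The spread of a ratio depends on counts, and all genes were not matched to the set by UMIs or by class. The 2 shares therefore do not show that these genes were steadier than others. Past 0.25 there were 7 higher and 16 lower values, against 7.22% and 11.1% of all values. Class medians of the genes ranged from -0.08 in oligodendrocytes to 0.01 in astrocytes, while those of all genes ranged from -0.07 in CA3 neurons to 0.03 in precursors. Class by class they were not always alike. The genes had -0.05 in CA3 neurons and -0.07 in precursors. In oligodendrocytes the median of all genes was 0.008. There 21 of 29 genes of the set were below 0, against 48.0% of all genes, and 6 were at least 0.25 lower, against 9.12%. These shares were not matched by gene span. In oligodendrocytes the median of all genes was 0.14 under 20 kb, where the set had 0 genes, and -0.03 to -0.07 from 50 kb up. By span, the median of the set was lower than that of all genes from 20 to 100 kb and over 500 kb. From 100 to 500 kb it was higher.

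**Figure D4:**
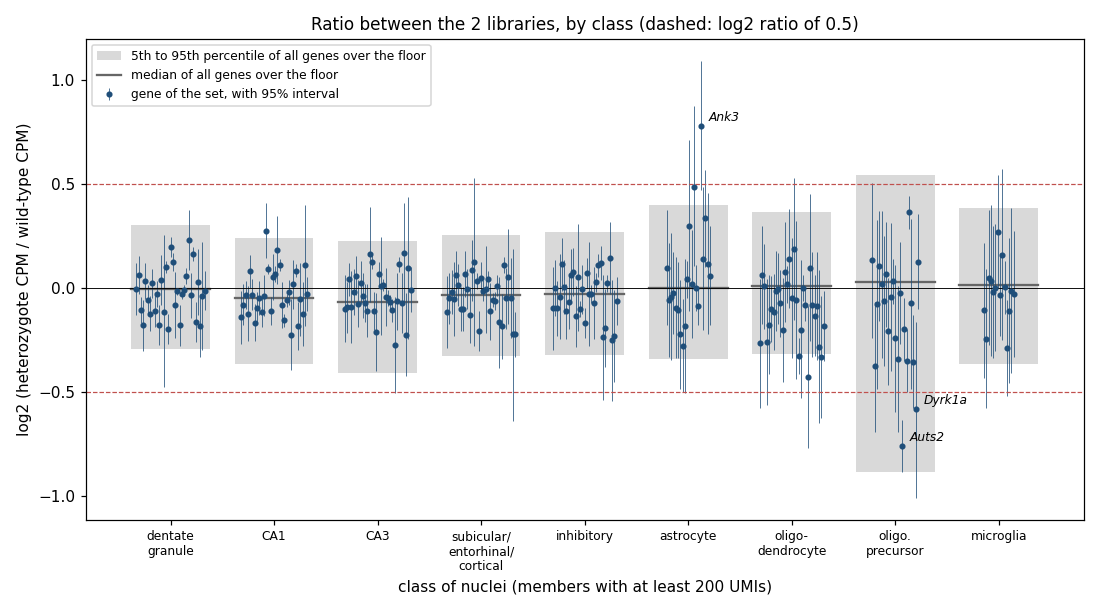
Log2 of the heterozygote CPM divided by the wild-type CPM for each gene with at least 200 UMIs in a class, with 95% intervals for counting error as thin bars, the 5th to 95th percentile of all genes over the floor as grey boxes and their median as a grey line. Most points lie inside the boxes; Ank3 in astrocytes lies above the upper dashed line at 0.5, and Auts2 and Dyrk1a in oligodendrocyte precursors lie below the lower one.

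Auts2 in oligodendrocyte precursors gave 776 UMIs (1105 CPM) in the heterozygote and 1684 UMIs (1872 CPM) in the wild type, a log2 ratio of -0.76 (-0.88 to -0.64). In this class 10.3% of all genes were at least 0.5 lower and 6.63% at least 0.5 higher, the widest spread of the 9 classes. A small set of deep nuclei carried much of the difference: the 14 of 197 wild-type precursors with more than 3 times the median UMIs held 46.9% of the Auts2 UMIs and 26.4% of all UMIs, and only 2 of 199 heterozygote precursors were that deep. Without these nuclei the levels were 1097 and 1351 CPM and the log2 ratio was -0.30. With every nucleus weighted alike it was also -0.30, and with nuclei thinned to 1000 UMIs it was -0.14. Dentate granule markers moved with it, at 266 CPM in heterozygote and 755 CPM in wild-type precursors for the 6 genes together (275 and 409 CPM without the deep nuclei), and 1 of the 6 was higher in the heterozygote. Cajal-Retzius (184 against 445 CPM), hilar mossy (21.4 against 47.8 CPM) and CA1 markers (349 against 404 CPM) were lower as well. Other neuronal lists went the other way: inhibitory neuron markers (6218 against 5069 CPM, 0.29) and CA2 markers (1188 against 990 CPM). CA3 (815 against 754 CPM) and subicular, entorhinal or cortical markers (960 against 827 CPM) were also higher. The inhibitory neuron markers stood at 11103 and 12100 CPM in inhibitory neurons and at 112 and 122 CPM in dentate granule neurons. General excitatory markers were nearly level (1270 against 1222 CPM). The part of these markers in the result was not tested.

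Dyrk1a in the same class gave 73 UMIs (104 CPM) against 140 UMIs (156 CPM), a log2 ratio of -0.58 (-1.01 to -0.16). Here the deep nuclei held 27.1% of the wild-type UMIs, close to their share of all UMIs, and without them the ratio was -0.52. Over all other settings tried it stayed between -0.76 and -0.49. Its levels in the other glial classes differed little, at 130 and 138 CPM in oligodendrocytes, 152 and 141 CPM in astrocytes and 253 and 256 CPM in microglia. The marker lists given above for precursors apply to this value as well, and their part in it was not tested.

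Ank3 in astrocytes gave 282 UMIs (242 CPM) against 127 UMIs (141 CPM), a log2 ratio of 0.78 (0.47 to 1.09). In astrocytes 2.58% of all genes were at least 0.5 higher and 1.06% at least 0.5 lower. Of the 282 UMIs, 72.3% came from 14 of 356 nuclei with more than 3 times the median UMIs, and in the wild type 55.1% came from 7 of 288. Without them the levels were 81.4 and 70.0 CPM and the ratio 0.22. Over the 14 other settings tried the ratio ran from 0.14 to 1.82. Markers of CA1 neurons were also higher in heterozygote astrocytes (254 against 157 CPM for the 7 together, 5 of 7 higher), as were the general excitatory markers (1089 against 835 CPM, 4 of 6 higher). CA2 markers (227 against 186 CPM, 0.29) and Cajal-Retzius markers (310 against 251 CPM, 0.30) were higher too. Dentate granule markers (902 against 895 CPM) and CA3 markers (1687 against 1690 CPM) were nearly level. So were subicular, entorhinal or cortical markers (2623 against 2567 CPM) and hilar mossy markers (-0.009). Inhibitory neuron markers stood at 617 against 659 CPM. Choroid plexus markers stood at 731 against 216 CPM (1.76), and they were higher in the heterozygote in every other class too, by 0.31 to 1.64. The part of these in the Ank3 value was not tested. Ank2, its relative, differed by -0.09 in the same class.

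**Figure D5:**
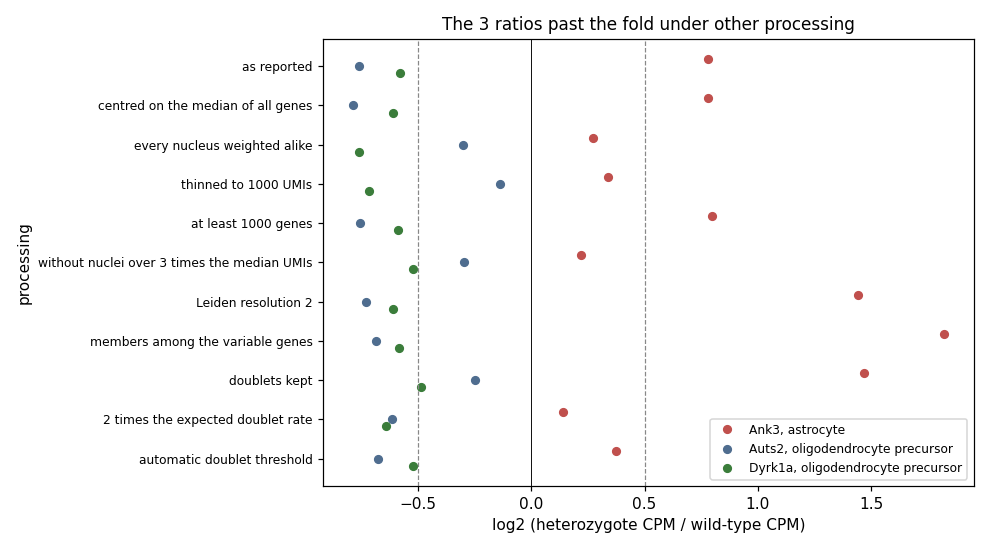
The 3 ratios past 0.5 on the log2 scale (x axis) as reported and under other processing (y axis), 1 point per gene and setting, with dashed lines at 0.5 and -0.5. Dyrk1a in precursors stays between -0.76 and -0.49, Auts2 moves from -0.76 as reported to -0.14 when thinned, and Ank3 in astrocytes runs from 0.14 to 1.82.

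A few genes leaned the same way in each class where they passed the floor, by small amounts. Tsc1 was lower in the heterozygote in all 6 such classes, with ratios from -0.33 in oligodendrocytes (92.6 against 117 CPM) to -0.05 and a median of -0.20. Over all nuclei kept it had 56.0 against 64.0 CPM (-0.19, interval -0.26 to -0.12). Ehmt1 was lower in 8 of 8 (median -0.13), and Chd8, Adnp and Med13l were each lower in 6 of 6 (medians -0.11, -0.11 and -0.10). Asxl3 was higher in 6 of 6 (median 0.08), most in CA1 neurons (83.5 against 69.0 CPM, 0.27). The interval lay clear of 0 in 4 of the 6 classes for Tsc1. For Ehmt1, Chd8, Adnp, Med13l and Asxl3 it did so in only 1 class each. With the ratios centred on the median of all genes, 1 class changed sign for Ehmt1 and 1 for Med13l, and none for the other 4. A shared sign is commoner with fewer classes, so each was set beside all genes over the floor in exactly the same classes. In the 5 neuronal classes and oligodendrocytes, 4 of the 8 such genes of the set were lower throughout and 1 higher, against 10.5% and 3.19% of 1598 genes. In all classes but microglia, 1 of 6 was lower throughout, against 4.87% of 513 genes. Of the 14 genes over the floor in all 9 classes, 0 had the same sign in every class, against 3.60% of 444 genes in each direction. Ube3a was higher in all 5 neuronal classes by 0.02 to 0.16, with Snhg14 between -0.003 and 0.09 in the same classes, and Tcf4 was higher in 4 of them and lower in inhibitory neurons (-0.10).

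By role, the median ratio over classes was -0.09 for the 30 values of the chromatin remodellers and their partners, -0.04 for the 67 of the methyltransferase group, -0.01 for the 57 of the transcription factors, -0.06 for the 30 of the membrane group, -0.06 for the 26 of the ubiquitin ligases and kinase, and -0.05 for the 25 of the RNA-binding and growth control genes. All 6 medians lay within 0.1 of 0. In dentate granule neurons, the class with the most UMIs, the genes lay between -0.20 (Tcf20, 224 against 257 CPM) and 0.23 (Ctnnb1, 67.5 against 57.5 CPM). Mef2c was 0.20 higher there (568 against 496 CPM) and lower in inhibitory neurons (637 against 715 CPM, -0.17). Ctnnb1 was lower in CA1 (-0.23) and CA3 neurons (-0.27).

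Partners and paralogues of the genes were read in the same way. The lists held 113 genes, such as other CHD remodellers, BAF and COMPASS subunits, Mediator subunits, spectrins and mTOR pathway genes, and 112 had at least 200 UMIs in some class. Of 703 values, 6 (0.853%) were at least 0.5 higher and 5 (0.711%) at least 0.5 lower, against the same 0.977% and 1.65% of all values, and their median was -0.04. The largest was St18, a paralogue of Myt1l and an oligodendrocyte marker, in inhibitory neurons (81.2 against 38.8 CPM, 1.07). Nfia (164 against 107 CPM, 0.61) and the COMPASS subunit Rbbp5 (118 against 94 UMIs, 0.54) were also higher there. Oligodendrocyte markers in that class were higher by 1.02 (8 of 8 higher), and their part was not tested. That list includes St18, which gave 366 of its 1434 heterozygote UMIs and 203 of its 823 wild-type UMIs. Without nuclei over 3 times the median UMIs, St18 stood at 46.1 against 31.9 CPM (0.53), Nfia at 0.48 and Rbbp5 at 0.46. In precursors Snhg14 (178 against 331 CPM, -0.90) and the spectrin Sptan1 (118 against 177 CPM, -0.58) were lower and Tcf7l2 higher (328 against 209 CPM, 0.65). Without the deep nuclei these were -0.66, -0.45 and 0.61. Beside them, dentate granule markers were lower (266 against 755 CPM) and markers of committed precursors higher (2293 against 1652 CPM, 0.47). Inhibitory neuron markers were higher as well (6218 against 5069 CPM, 0.29). The part of these markers was not tested. Zbtb20, a zinc-finger factor of hippocampal neurons, was higher in the subicular, entorhinal or cortical class (569 against 368 CPM, 0.63) and the demethylase Kdm6b lower (107 against 207 UMIs, -0.53). Dentate granule markers (250 against 192 CPM, 0.38, 6 of 6 higher) and CA3 markers (954 against 800 CPM, 0.25) were also higher in that class, and their part was not tested. Without the deep nuclei Zbtb20 had 285 against 210 CPM (0.44) and Kdm6b a ratio of -0.49. The remaining values past 0.5 were Ank1 in CA1 neurons (28.1 against 40.0 CPM, -0.51), Ep300 in microglia (221 against 321 CPM, -0.54) and Fbrsl1, a paralogue of Auts2, in astrocytes (144 against 99.7 CPM, 0.53).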

How the data were processed

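Nuclear RNA of 2 hippocampus libraries, 1 per genotype, was counted by the authors with Cell Ranger 7.1.0 on mm10, per the submitters' processing notes. The deposited values are whole-number UMI counts for each gene in each barcode. Whether intronic reads were counted, and by strand, was not given in the sources used here.

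The rest was computed here, with numpy 2.4.6 and scipy 1.17.1 for the intervals and scanpy 1.11.5 with leidenalg 0.10.2 for the clusters, under Python 3.11.15. The genes, lists, markers and rules were chosen with earlier results of these data known. Barcodes with at least 500 genes and at most 5% mitochondrial UMIs were kept, and the highest Scrublet scores were removed in each library up to an expected 0.8% per 1000 barcodes (5.77% and 5.14%). The automatic Scrublet threshold marked 0% in the heterozygote and 9.48% in the wild-type library. Both libraries were clustered together on 2000 variable genes without the 31 genes (30 components, 15 neighbours, Leiden resolution 1), giving 27 clusters. A cluster took a name where at least 3 markers were detected with a mean log2 ratio of at least 1. The rule for shallow clusters, which left a cluster led by hemoglobin genes unnamed, was revised after the data were seen.

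Summed UMIs per library and class gave CPM with exact Poisson intervals and log2 ratios with exact conditional binomial intervals (95%), where a gene's UMIs in the class, both libraries summed, reached 200. The ratio code was tested on simulated data. Named are all 31 genes in their highest class, each value at least 0.5 in size whose interval does not hold 0, and up to 3 partners per class and direction by that rule. Genes with sign shared by every class over the floor, and differences between clusters, were picked after their values were seen. Of 32285 identifiers, 32235 were in GENCODE M21. Mixed, unnamed and small classes were left out of the ratios. Alternatives changed the scaling, weighting, depth, floor, doublet removal and clustering.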

Additional observations from a re-analysis of the deposited data

Results flagged for a closer look

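Ratios of 3 genes went opposite ways in 2 classes, by at least 0.25 on the log2 scale in each. The intervals did not hold 0, and the difference between classes was not tested. The share of all genes that meet this rule was not computed, so the count is not read as a trait of these genes. All 3 involve precursors, where 24.9% of all genes were at least 0.25 higher and 22.3% at least 0.25 lower. Ank3 was 0.78 higher in astrocytes and lower in oligodendrocyte precursors (816 against 1040 CPM, -0.35), 1.13 apart, and without nuclei deeper than 3 times the median UMIs these were 0.22 and -0.13, both under 0.25. Dscam was 0.36 higher in precursors (3644 against 2832 CPM) and lower in oligodendrocytes (67.0 against 90.3 CPM, -0.43), 0.79 apart, and without the deep nuclei these were 0.17 and -0.97. The 7 precursor markers were also higher in heterozygote precursors (13685 against 10767 CPM, 0.35, 7 of 7 higher) and the dentate granule markers lower (-1.50). Inhibitory neuron markers were higher there (6218 against 5069 CPM, 0.29). The part of these markers was not tested. Ube3a was 0.34 higher in astrocytes (345 against 274 CPM) and lower in precursors (377 against 482 CPM, -0.35), 0.69 apart, and without those nuclei the precursor levels were 310 and 319 CPM.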

How the results depend on the processing

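No paired analysis was possible because each genotype had 1 library, and for the same reason no library could be left out. Over the 14 alternatives the genes' median ratio stayed between -0.05 and -0.01 over all classes but ran from -0.20 (floor of 1000 UMIs) to 0.13 (thinned) in precursors, where it was -0.07 as reported, and it also changed sign in CA1 and CA3 neurons, astrocytes and microglia, where it stayed between -0.07 and 0.03. The number of genes highest in microglia stayed between 12 and 16 in the 10 alternatives that bear on it. Counts of values past 0.5 were small and moved. They take only values over the floor, so a lower count need not mean a smaller ratio. Neither the number of values nor the share of all genes is given for each alternative. The counts are therefore not read as changes in these genes. For the 31 genes the higher side (1 as reported) gave 0 with every nucleus weighted alike, with nuclei thinned to 1000 UMIs, at a floor of 1000 UMIs, without nuclei over 3 times the median UMIs, with doublets kept, at 2 times the expected doublet rate and at the automatic threshold, and 2 with at least 1000 genes per nucleus or with the 31 genes allowed in the clustering, although 0 of them were then among the variable genes. The lower side (2 as reported) gave 5 at a floor of 50 UMIs and 1 at a floor of 1000, without the deep nuclei, at Leiden resolution 2, with doublets kept and at 2 times the doublet rate. For the partners the higher side (6 as reported) gave 1 when thinned or with doublets kept, 22 and 2 at floors of 50 and 1000, and 3 without the deep nuclei. Their lower side (5 as reported) gave 3 when centred on the median of all genes or thinned, 10 with nuclei weighted alike, 23 and 0 at floors of 50 and 1000, and 2 with doublets kept. At a fold of 0.25 the counts were 7 and 16 for the genes and 41 and 55 for the partners. That fold and the removal of deep nuclei were chosen after seeing the data. Thinning turned the precursor ratios of Ank3 and Ube3a to 0.13 and 0.16, and keeping doublets turned that of Ube3a to 0.051; the cause was not tested. Among genes of 1 sign in each class, alternatives turned at most 1 class, or 2 for Adnp. The planned comparison of protein sequences was not run. Depth limits microglia, astrocytes and precursors most: 14, 20 and 21 of the 31 genes reached the floor there.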
